A study of Mus musculus with 6 samples.

Results

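The 9 genes described here encode transcription factors known for establishing or maintaining the hepatocyte state: Cebpa, Cebpb, Foxa1, Foxa2, Foxa3, Onecut1, Prox1, Foxo1 and Klf15. They were chosen by name, as the genes whose symbol in the FPKM table was one of these 9, and their counts were joined by Ensembl identifier. All 9 were found among the 20673 genes of the tables, and all 9 passed the filter on low counts. RNA was sequenced from livers of C57BL/6J mice from the Jackson Laboratory, young adults by the study's methods, that carried no transgene or knockout. Of the 6 livers, 3 came from mice on the regular diet (RD, a Teklad chow) and 3 from mice on the high-cholesterol diet (HCD) for 3 days, which holds cocoa butter, added cholesterol and sodium cholate. The comparison of HCD with RD asked what short feeding of this diet does to the liver before any infection. Cholate, a bile acid, was in the HCD and not in the RD, and the HCD also held more fat on another base diet. The parts of cholesterol, cholate, fat and base diet cannot be told apart. Both sexes were used in the study, and the labels do not give the sex of a liver. The labels number the livers without naming animals, so the p-values measure the spread between these samples.

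Hepatocyte identity is held by a small network of DNA-binding proteins that bind each other's genes and the genes for plasma proteins, gluconeogenesis, bile acid synthesis and lipid handling. CEBPA and CEBPB are basic leucine zipper proteins. CEBPA is known for keeping hepatocytes quiescent and differentiated, and CEBPB for the acute phase response, fasting and regeneration. FOXA1, FOXA2 and FOXA3 are forkhead proteins that can bind nucleosomal DNA and act early in liver development. ONECUT1, also called HNF6, takes part in hepatocyte and bile duct differentiation, and PROX1 is a homeodomain protein of hepatocytes and of lymphatic endothelium. FOXO1 is the forkhead factor that insulin signalling moves out of the nucleus, and KLF15 is a zinc finger factor of fasting known for amino acid breakdown.

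Between 13771630 and 23129576 reads were counted on genes in the RD livers and between 13935491 and 18545549 in the HCD livers. Counts were tested with edgeR's quasi-likelihood test, and genes under 0.05 after Benjamini-Hochberg adjustment were called. Among 13105 genes tested, 428 were called, 255 higher and 173 lower with HCD. CPM below are counts brought to a common library total with TMM factors and serve comparisons of 1 gene between livers. FPKM are the deposited values per length of gene and serve comparisons between genes. Xist, an RNA of female cells, was counted 5032 times in 1 library, HCD replicate 1, and in no other. By this RNA, HCD replicate 1 was a female liver and no RD liver was, so sex was not balanced between the diets. The part of sex in the values of HCD replicate 1 was not tested. Alb, the albumin gene and the most abundant hepatocyte marker, lay between 39324 and 67645 FPKM over the 6 livers. Of the 10 hepatocyte markers 9 were in the tables, none was called by edgeR, and DESeq2 called 2 of them higher and 1 lower.

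None of the 9 genes was called with HCD by edgeR, where 3.27% of all genes tested were called, 1.95% higher and 1.32% lower. An unadjusted p of at most 0.05 was reached by 4, or 44.4% of the 9, with Cebpb and Foxo1 higher and Foxa3 and Onecut1 lower, where 20.9% of all genes tested reached that limit. DESeq2, the other count test, called 2 of the 9, or 22.2%, beside 6.97% of the genes it tested: Cebpb was higher and Foxa3 lower. edgeR without a filter on low counts called the same 2 genes, beside 3.14% of all genes. CPM ranges of the 2 diets were apart for 3 of the 9, or 33.3%, beside 27.6% of all genes tested, a share near the background. Foxo1 was the 1 gene with all HCD livers above all RD livers (14% of all genes tested), and Foxa3 and Onecut1 were the 2 with all HCD livers below (13.7%). Log2 fold changes, all HCD over RD, had a median of -0.51 over the 9 genes and 0.01 over all genes tested, and 6 of the 9 were negative. The same number was negative in each fit that left out a liver, while the median was -0.14 when RD replicate 1 was left out, -0.19 for RD replicate 2 and -0.29 for HCD replicate 3. In bulk liver, fewer cells of a type and less RNA per cell cannot be told apart.

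**Figure D1:**
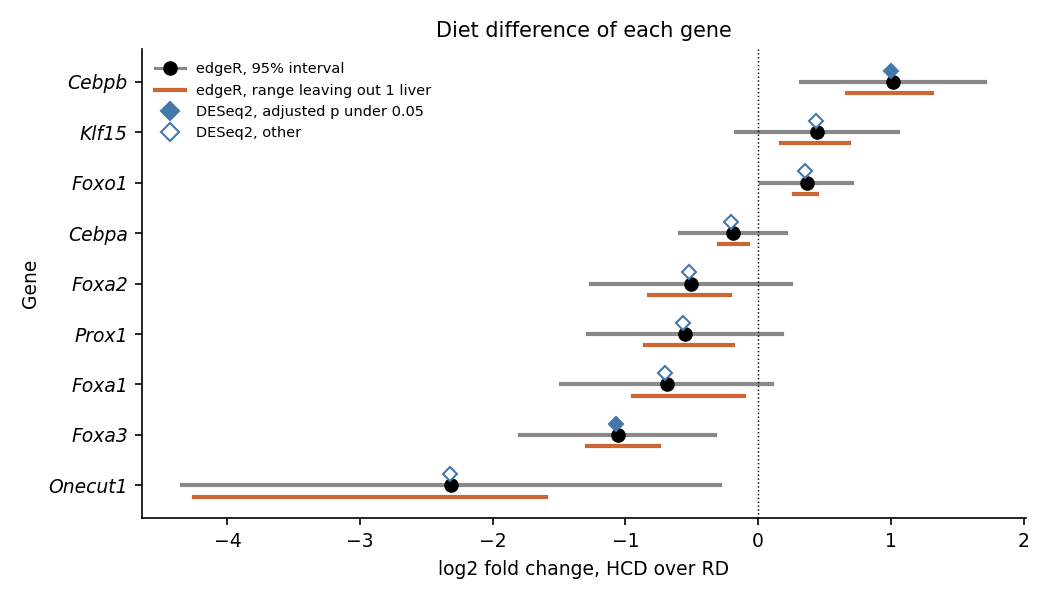
Log2 fold change of HCD over RD (horizontal axis) for each of the 9 genes (vertical axis), from edgeR with its 95% interval (black points, grey bars), over the fits that each leave out 1 liver (orange bars) and from DESeq2 (diamonds, filled where its adjusted p was under 0.05). Cebpb at 1.02 and Onecut1 at -2.31 lie at the ends, the intervals of Cebpa, Foxa1, Foxa2, Prox1 and Klf15 include 0, and DESeq2 marks are filled for Cebpb and Foxa3.

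Levels per gene length ordered the 9 genes over a wide range. Cebpa had the highest mean over the 6 livers, with 247 ± 32.5 FPKM (SD, n = 6), at percentile 98.5 of all genes in the table. Cebpb followed with 114 ± 61.0 FPKM and Klf15 with 84.7 ± 28.1 FPKM. These 3 genes, a pair of C/EBP factors and a fasting factor, made up the top of the order. Foxa3 had 37.2 ± 16.5, Foxa2 23.1 ± 8.56 and Foxa1 13.1 ± 6.68 FPKM, so that the mean levels of the forkhead trio descended from Foxa3 to Foxa1. Prox1 lay between Foxa2 and Foxa1 with 16.5 ± 6.50 FPKM. Foxo1 with 5.55 ± 0.968 and Onecut1 with 5.51 ± 5.80 FPKM were lowest, at percentiles 71.6 and 71.5. Of the 8 neighbouring pairs in this order only Foxa1 and Foxo1 had ranges over the livers that did not overlap, with Foxa1 the higher in 6 of 6 livers. Cebpa was above Cebpb in 6 of 6 livers as well, although their ranges overlapped. With 1 liver left out, the order of the means can change, and 0 to 2 neighbouring pairs had ranges apart.

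**Figure D2:**
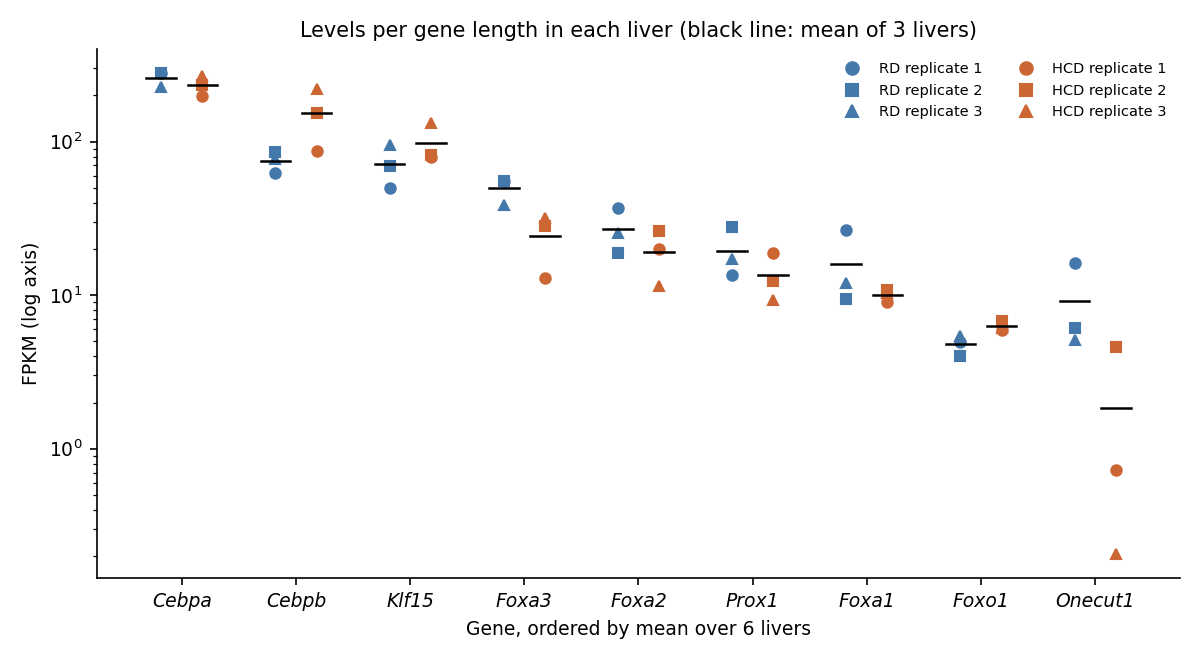
FPKM of each gene in each liver on a log axis (vertical), with genes in the order of their mean over the 6 livers (horizontal), RD livers in blue, HCD livers in orange, the marker shape giving the replicate number and black lines the mean of 3 livers. Onecut1 spreads from 0.207 to 16.3 FPKM, while Cebpa stays between 198 and 279 FPKM.

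Cebpa and Cebpb bind the same DNA element as homodimers or as heterodimers, and with HCD the mean CPM of Cebpa was lower and that of Cebpb higher, neither past the edgeR threshold. Cebpa (ENSMUSG00000034957, a gene of 1 exon on chromosome 7 of GRCm38 from 35119293 to 35121928) had 505, 511 and 401 CPM in the RD livers, in the order of their replicate numbers, and 346, 429 and 468 CPM in the HCD livers. The diets overlapped, with HCD replicate 1 lowest. Its log2 fold change was -0.19 (standard error 0.18, edgeR adjusted p = 0.576), and the 95% interval of -0.59 to 0.21 leaves room for a decrease or a small increase. Leaving out HCD replicate 1 gave -0.07, HCD replicate 3 -0.29 and RD replicate 3 -0.30. Cebpb (ENSMUSG00000056501, 1 exon, chromosome 2 from 167688915 to 167690418) had 64.3, 89.4 and 77.2 CPM with RD and 86.8, 159 and 222 CPM with HCD. Here HCD replicates 2 and 3 were above every RD liver, and HCD replicate 1 was below RD replicate 2. Mean Cebpb was 77.0 ± 12.5 CPM (SD, n = 3) with RD and 156 ± 67.6 CPM with HCD. The log2 fold change was 1.02 (standard error 0.30, 95% interval 0.32 to 1.71, edgeR adjusted p = 0.110; exact two-sided permutation test of the CPM, p = 0.2, with 0.10 the lowest p that 3 livers a diet allow). DESeq2 gave 1.00 with an adjusted p of 0.00479. Without HCD replicate 1 the edgeR value was 1.31 and past the threshold (adjusted p = 0.0210), and without HCD replicate 3 it was 0.67 (adjusted p = 0.246). On the FPKM scale the diets were just apart, with 62.2 to 85.2 FPKM with RD and 87.0 to 221 FPKM with HCD. Cebpb and Tmem189 share 312 bases of exon on opposite strands, and whether the counting used strand is not stated. Tmem189 had 112 to 290 counts per liver and a log2 fold change of -0.52 (edgeR adjusted p = 0.197).

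Because both values come from the same liver, the ratio of Cebpb to Cebpa does not depend on the scaling of a library. In FPKM over FPKM it was 0.223, 0.306 and 0.338 with RD and 0.440, 0.648 and 0.831 with HCD. Every HCD liver was above every RD liver. The log2 ratio was higher by 1.12 with HCD, and by 0.91 to 1.37 when 1 liver was left out. An exact two-sided permutation test gave p = 0.1, the smallest that this design allows, and adjustment over the 6 within-liver measures computed gave 0.5 for each of them. The ratio was thus below 1 in all 6 livers, with Cebpa the more abundant C/EBP RNA on either diet.

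The promoters of this pair are shown because their composition differs, with 66.4% G and C for Cebpa and 81.6% for Cebpb within 1 family. Each is the 250 bases before the RefSeq transcription start on GRCm38.p6, written in the direction of the gene, with capitals marking matches on either strand to the 7 motifs spelled out further on. Cebpa is at chr7:35119043-35119292 on the plus strand and Cebpb at chr2:167688665-167688914 on the plus strand.
Cebpa: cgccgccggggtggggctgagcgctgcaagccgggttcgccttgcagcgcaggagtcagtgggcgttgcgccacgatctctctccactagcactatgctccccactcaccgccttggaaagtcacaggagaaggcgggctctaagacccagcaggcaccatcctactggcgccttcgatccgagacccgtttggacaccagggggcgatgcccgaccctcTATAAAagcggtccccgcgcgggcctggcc
Cebpb: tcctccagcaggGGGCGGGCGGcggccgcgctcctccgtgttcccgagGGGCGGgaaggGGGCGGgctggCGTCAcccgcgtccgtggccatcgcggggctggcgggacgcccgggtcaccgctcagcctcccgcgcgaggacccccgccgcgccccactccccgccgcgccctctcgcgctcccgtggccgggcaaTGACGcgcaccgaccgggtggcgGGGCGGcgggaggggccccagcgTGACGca
The capitals in Cebpa are a single TATA box, and those in Cebpb are 5 GC boxes, of which the first 2 overlap, and 3 copies of TGACG.

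Of the 3 forkhead genes, Foxa3 had the largest difference between the diets. Foxa3 (ENSMUSG00000040891, 2 exons, chromosome 7 from 19013284 to 19023538 on the minus strand) had 77.7, 79.0 and 52.8 CPM with RD and 17.5, 39.9 and 43.3 CPM with HCD. All 3 HCD livers were below all 3 RD livers, HCD replicate 1 furthest, and exact permutation gave p = 0.1. Mean Foxa3 was 69.8 ± 14.8 CPM with RD and 33.6 ± 14.0 CPM with HCD (SD, n = 3). The log2 fold change was -1.06 (standard error 0.32, 95% interval -1.79 to -0.33, edgeR adjusted p = 0.113), and DESeq2 gave -1.07 with an adjusted p of 0.00503. The fits that left out a liver ranged from -0.75 (HCD replicate 1 left out) to -1.29 (HCD replicate 3 left out), none past the threshold.

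Foxa1 (ENSMUSG00000035451, chromosome 12 from 57540628 to 57546916, minus strand) had 26.5, 9.47 and 12.0 FPKM with RD and 9.10, 10.9 and 10.3 FPKM with HCD. RD replicate 1 stood above the other 5 livers, which lay together. Its log2 fold change of -0.69 (standard error 0.35, edgeR adjusted p = 0.301) became -0.10 without RD replicate 1 and -0.61 without HCD replicate 1. Foxa2 (ENSMUSG00000037025, chromosome 2 from 148042877 to 148046969, minus strand) had 59.8, 31.0 and 40.3 CPM with RD and 31.2, 42.9 and 18.1 CPM with HCD. The diets overlapped, with RD replicate 1 highest and HCD replicate 3 lowest. Foxa2 differed by a log2 fold change of -0.51 (standard error 0.33, edgeR adjusted p = 0.418), which moved to -0.21 without RD replicate 1, to -0.25 without HCD replicate 3 and to -0.82 without HCD replicate 2. RD replicate 1 was thus the highest liver for both of these genes, while Foxa3 was about level in RD replicates 1 and 2.

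Summed over the trio, FPKM were 119, 83.8 and 76.1 in RD replicates 1 to 3 and 42.0, 65.4 and 53.6 in HCD replicates 1 to 3, all HCD livers below all RD livers. Foxa3 held 46.7%, 66.3% and 50.9% of that sum with RD and 30.9%, 43.3% and 59.4% with HCD. The shares overlapped, and their mean differed by -10.1 percentage points (exact two-sided permutation test, p = 0.4, adjusted p = 0.5), or by -3.29 without HCD replicate 1 and -17.5 without HCD replicate 3. The Foxa2 share was higher with HCD by 7.36 percentage points (exact p = 0.5, adjusted 0.5; 1.80 without HCD replicate 1, 14.8 without HCD replicate 3). The Foxa1 share was higher by 2.73 percentage points (exact p = 0.5, adjusted 0.5; 0.15 without RD replicate 2, 5.67 without RD replicate 1). With 3 livers a diet these tests cannot pass 0.05, so they say nothing on whether the shares shifted. The promoter of Foxa3, shown for the member of the trio with the largest difference, is at chr7:19023540-19023789 on the minus strand.
Foxa3: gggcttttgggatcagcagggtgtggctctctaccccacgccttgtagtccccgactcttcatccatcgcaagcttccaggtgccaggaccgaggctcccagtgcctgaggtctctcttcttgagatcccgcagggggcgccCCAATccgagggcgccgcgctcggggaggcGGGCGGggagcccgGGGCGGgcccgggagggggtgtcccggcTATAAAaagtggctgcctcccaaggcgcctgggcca
Its capitals are 1 CCAAT box, 2 GC boxes and 1 TATA box.

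**Figure D3:**
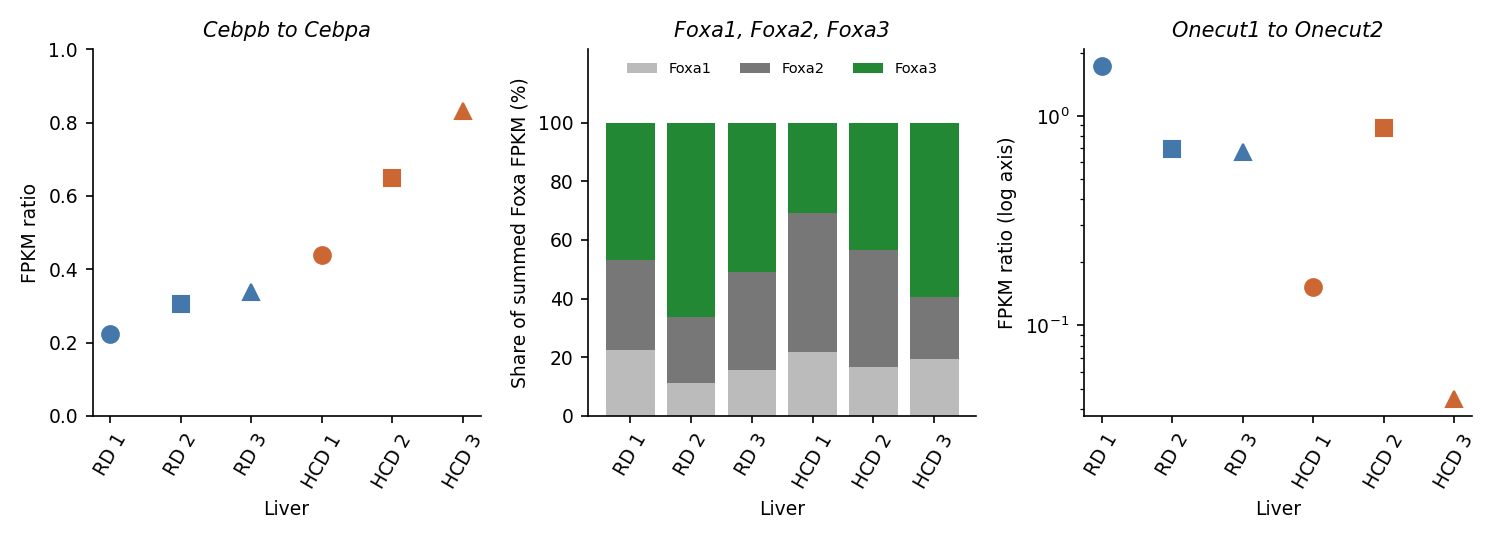
Left, FPKM of Cebpb over Cebpa in each liver, where the 3 HCD livers (orange, 0.440 to 0.831) lie above the 3 RD livers (blue, 0.223 to 0.338). Middle, stacked percent of the summed Foxa FPKM held by Foxa1, Foxa2 and Foxa3 in each liver. Right, FPKM of Onecut1 over Onecut2 on a log axis, where HCD replicate 2 at 0.870 lies among the RD livers and HCD replicate 3 at 0.0444 is lowest.

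Onecut1 varied most of the 9 genes. Onecut1 (ENSMUSG00000043013, 3 exons, chromosome 9 from 74861921 to 74891781) had 957, 251 and 325 reads in RD replicates 1 to 3 and 39, 190 and 7 reads in HCD replicates 1 to 3. Scaled, these were 46.0, 17.5 and 14.1 CPM with RD and 1.97, 13.1 and 0.567 CPM with HCD. The highest liver was thus 81.1 times the lowest, while every HCD liver was below every RD liver, HCD replicate 2 by a small margin. The value in HCD replicate 3 rests on 7 reads. The log2 fold change was -2.31 (standard error 0.89, 95% interval -4.34 to -0.29, edgeR adjusted p = 0.188; exact permutation p = 0.1), and DESeq2 gave an adjusted p of 0.294. Without HCD replicate 2 it was -4.25 and past the threshold (adjusted p = 0.0356), and without RD replicate 1 it was -1.60 (adjusted p = 0.479). When HCD replicate 1 was left out, it was -1.90. In the annotation, 2171 bases of Onecut1 exon are shared on the same strand with the lincRNA Gm20649, which is not among the genes of the tables, so reads there cannot be assigned to 1 of them.

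Onecut2, the relative of Onecut1 with a like DNA-binding domain, fell with HCD. Its CPM were 86.6, 82.1 and 68.1 in the RD livers and 42.2, 49.0 and 41.6 in the HCD livers, with no overlap. For Onecut2 the log2 fold change was -0.84 (standard error 0.14, edgeR adjusted p = 0.0252), and the call was lost without RD replicate 1, RD replicate 2 or HCD replicate 3, with the length trend removed and with the replicate number as a block. The ratio of Onecut1 to Onecut2 was 1.73, 0.694 and 0.674 with RD and 0.152, 0.870 and 0.0444 with HCD, in FPKM over FPKM. HCD replicate 2 lay among the RD livers, and the log2 ratio differed by -2.37 (exact two-sided permutation test, p = 0.3, adjusted 0.5; -1.36 without HCD replicate 3, -3.50 without HCD replicate 2). Onecut2 stayed within 4.66 to 9.41 FPKM over the 6 livers, and Onecut1 within 0.207 to 16.3 FPKM. The promoter of Onecut1, shown for the gene with the widest range, is at chr9:74861671-74861920 on the plus strand.
Onecut1: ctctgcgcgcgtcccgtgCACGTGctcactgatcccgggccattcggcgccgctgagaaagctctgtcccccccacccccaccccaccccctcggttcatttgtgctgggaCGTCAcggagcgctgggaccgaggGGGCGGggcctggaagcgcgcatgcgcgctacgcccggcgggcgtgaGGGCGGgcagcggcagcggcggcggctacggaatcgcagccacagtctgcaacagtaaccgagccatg
Its capitals are 1 E-box, 1 copy of TGACG and 2 GC boxes.

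Prox1 (ENSMUSG00000010175, chromosome 1 from 190118035 to 190170714, minus strand) had 77.5, 162 and 96.5 CPM with RD and 105, 71.8 and 51.9 CPM with HCD. RD replicate 2 was highest and HCD replicate 3 lowest, and HCD replicate 1 was above 2 RD livers. Its log2 fold change of -0.55 (standard error 0.32, edgeR adjusted p = 0.363) shrank to -0.19 when RD replicate 2 was left out and to -0.34 for HCD replicate 3, and was -0.86 for HCD replicate 1. Lymphatic endothelium is the other cell type in which PROX1 is known. Of its 5 markers 2 were tested and none called, the summed level of the 5 was 3.97 to 5.24 FPKM with RD and 4.72 to 7.41 FPKM with HCD. Reln, which stellate cells also express, and Flt4, which sinusoidal endothelium also expresses, made up most of that sum, while Pdpn, Mmrn1 and Ccl21a were at most 0.768, 0.311 and 0.302 FPKM, Ccl21a listed at 0 in some libraries. The antisense gene Prox1os shares 133 bases of exon with Prox1 and had 46 to 165 counts per liver, with a log2 fold change of 0.85 (edgeR adjusted p = 0.217).

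Foxo1 and Klf15, the factors of fasting and insulin signalling, were the other 2 genes with positive values besides Cebpb. The paper reports that mice on HCD ate modestly less, and the part of food intake in these values was not tested. Foxo1 (ENSMUSG00000044167, chromosome 3 from 52268336 to 52353221) had 29.6, 24.3 and 31.4 CPM with RD and 34.3, 40.5 and 35.4 CPM with HCD. The HCD livers were all above the RD livers, and the gap between the closest livers was smaller than the range within either diet. Its log2 fold change was 0.37 (standard error 0.15, 95% interval 0.02 to 0.71, edgeR adjusted p = 0.209; exact permutation p = 0.1), it stayed between 0.27 and 0.44 when 1 liver was left out, and DESeq2 gave an adjusted p of 0.335. The exons of Foxo1 share 674 bases with the antisense gene Gm20402, which is not among the genes of the tables. Foxo3, the relative that shares FOXO1 target sites, had a log2 fold change of -0.16 (standard error 0.25, edgeR adjusted p = 0.746). The ratio of Foxo1 to Foxo3 was 0.882, 0.562 and 0.602 with RD and 1.15, 0.773 and 1.08 with HCD in FPKM, a difference of 0.56 in the log2 ratio with overlapping diets (exact two-sided permutation test, p = 0.2, adjusted 0.5). Klf15 (ENSMUSG00000030087, chromosome 6 from 90462576 to 90475238) had 95.6, 134 and 177 CPM with RD and 147, 159 and 248 CPM with HCD. RD replicate 3 lay above HCD replicates 1 and 2, so the diets overlapped. The log2 fold change of Klf15 was 0.45 (standard error 0.27, 95% interval -0.16 to 1.05, edgeR adjusted p = 0.379), and leaving out a liver moved it to 0.17 (HCD replicate 3), 0.25 (RD replicate 1), 0.59 (HCD replicate 1) or 0.68 (RD replicate 3).

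The genes around FOXO1 and KLF15 gave no calls by edgeR, and DESeq2 called 1 of them. Of 12 genes for insulin signalling and coactivators of FOXO1, all tested, 0 were called by edgeR and 0 by DESeq2, 2 had lower values with an unadjusted p of at most 0.05, and the median log2 fold change was -0.09 (-0.15 when HCD replicate 1 was left out). Akt2, the kinase that phosphorylates FOXO1 in liver and the most abundant of them, lay between 19.7 and 23.1 FPKM. Of 12 genes known to be induced by FOXO1 that were in the tables, none was called by either tool, an unadjusted p of at most 0.05 was reached by 1 in each direction, and the median was 0.42. That median moved with single livers, to 0.07 when HCD replicate 1 was left out, 0.19 for RD replicate 1, 0.22 for HCD replicate 3, 0.27 for RD replicate 2 and 0.91 for RD replicate 3. Apoc3, an apolipoprotein and the most abundant of these, had 2029 to 2365 FPKM with RD and 2445 to 4581 FPKM with HCD (log2 fold change 0.57, edgeR adjusted p = 0.207). Of 10 genes for amino acid breakdown, the setting of KLF15, none was called by edgeR and 1 by DESeq2, higher. That list's most abundant gene, Hpd of tyrosine breakdown, had 779 to 1209 FPKM with RD and 1219 to 1943 FPKM with HCD (log2 fold change 0.71, edgeR adjusted p = 0.131). The list's median was 0.07, beside 0.01 over all genes tested, and lay between -0.10 (HCD replicate 3 left out) and 0.34 (RD replicate 3 left out).

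Acute phase genes, the setting in which CEBPB is known, had 1 call among 11 genes. Saa3, a serum amyloid A gene expressed in macrophages as well as in hepatocytes, had 4.85, 5.72 and 7.55 CPM with RD and 15.3, 48.0 and 22.5 CPM with HCD. It was higher in every HCD liver, with a log2 fold change of 2.24 (standard error 0.41, edgeR adjusted p = 0.0295), and the call was lost without any of the 3 RD livers and without HCD replicate 3. Hpx, the haem-binding hemopexin and the most abundant gene of the list, had 5252 to 7170 FPKM with RD and 4783 to 10823 FPKM with HCD (edgeR adjusted p = 0.674). The median over the list was 0.38, with 8 of 11 positive, but it was -0.19 when HCD replicate 2 was left out and 0.83 when HCD replicate 1 was left out. Summed over the list, the level was 25807 FPKM in HCD replicate 2, 16446 in HCD replicate 3, 13696 to 14507 in the RD livers and 11069 in HCD replicate 1. HCD replicates 2 and 3 were also the highest livers for Cebpb, there with HCD replicate 3 above HCD replicate 2.

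Relatives outside the 9 genes and other hepatocyte factors were set beside them. Of 26 listed genes of the C/EBP, ONECUT, PROX, FOXO and KLF families, 23 were in the tables and 20 tested, and Onecut2 was the 1 call, lower. DESeq2 called 2 of them, 1 in each direction. The median log2 fold change of the relatives was 0.07, with 10 positive and 10 negative, and leaving out a liver moved it to -0.11 (HCD replicate 1), 0.12 (HCD replicate 3), 0.14 (RD replicate 3) or 0.17 (HCD replicate 2). Klf9, a glucocorticoid-responsive factor and the most abundant relative, lay between 19.7 and 35.3 FPKM (log2 fold change -0.30, edgeR adjusted p = 0.478). Cebpa, Cebpb and Klf15 were above Klf9 in every liver, and Foxa3 was above it in the RD livers and in HCD replicate 3 but below it in HCD replicates 1 and 2. Of 15 other transcription factors of hepatocytes, all tested, 12 were negative and Rxra was the 1 call, lower.

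Rxra, which encodes the partner of many nuclear receptors, had 522, 558 and 468 CPM with RD and 298, 331 and 335 CPM with HCD. The diets were well apart, and the log2 fold change of -0.68 (standard error 0.14) had an edgeR adjusted p of 0.0449 that went past 0.05 in each of the 6 fits that left out a liver, with the length trend removed and with the replicate block. The median of these 15 factors was -0.22. Atf5, a basic leucine zipper factor and the most abundant of them, lay between 191 and 336 FPKM (log2 fold change -0.21, edgeR adjusted p = 0.591). Summed over the 15, the level was 931 to 1021 FPKM with RD and 725 to 841 FPKM with HCD, without overlap. Summed over the 9 genes, it was 544, 554 and 503 FPKM with RD and 432, 560 and 690 FPKM with HCD, with Cebpa making up 38.6% to 51.2% of it.

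**Figure D4:**
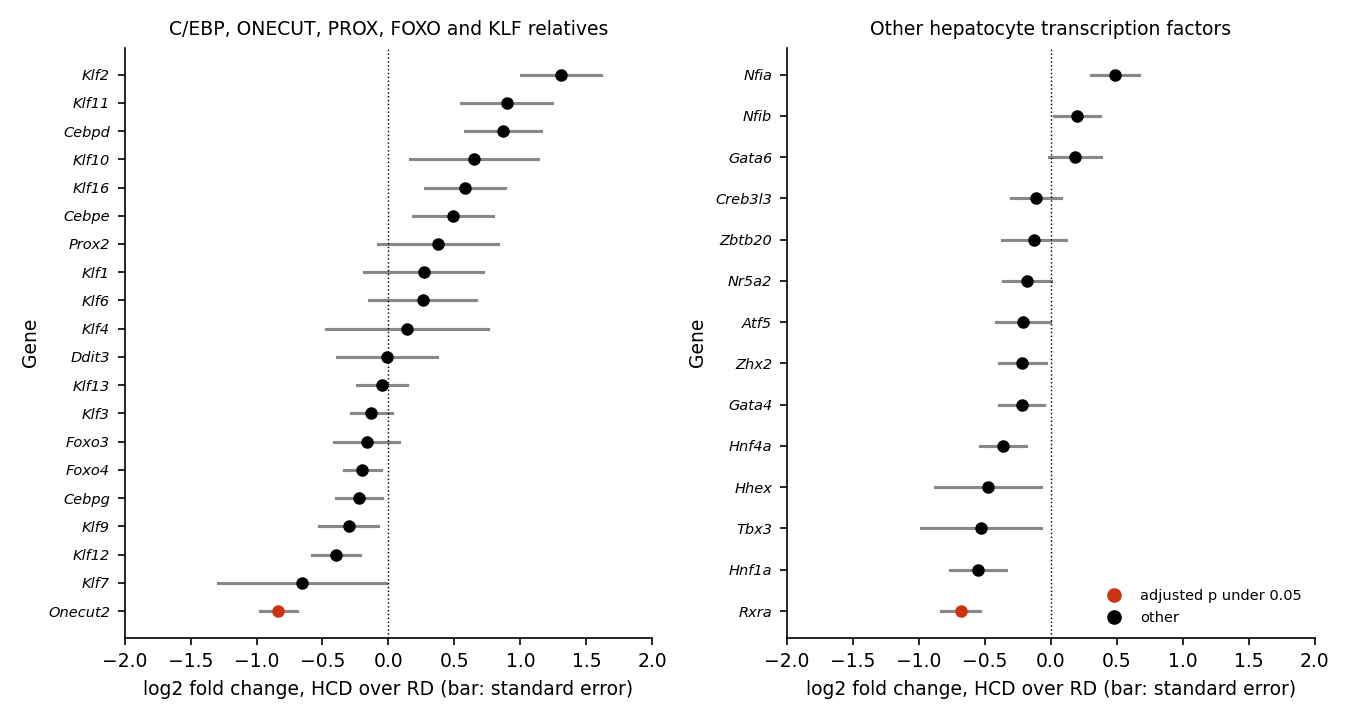
Log2 fold change of HCD over RD (horizontal axis, with standard error) for the 20 tested relatives (left) and 14 of the 15 other hepatocyte transcription factors (right), one gene a row, red where the edgeR adjusted p was under 0.05. Onecut2 at -0.84 and Rxra at -0.68 are the red points, and 11 of the 14 points on the right lie below 0.

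The spread between livers on the same diet was wide for these genes. The coefficient of variation of CPM over the RD livers had a median of 29.9% over the 9 genes, and all 9 were above 9.79%, the median of the 5816 genes in the same range of mean CPM. Over the HCD livers the median was 35.3% for the 9 genes, and 7 were above the median of 14.5% for those 5816 genes. Foxo1 and Foxa1 were the 2 below it, with 9.08% and 11.0%. Onecut1 had the highest coefficient on either diet, 67.7% with RD and 132% with HCD. Cebpb had 16.3% with RD and 43.4% with HCD, and Foxa1 went the other way with 57.9% and 11.0%.

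Summed levels of the markers of other liver cells overlapped between the diets for each list, and edgeR called none of these markers. All 7 Kupffer cell markers had positive log2 fold changes, with a median of 0.91 (0.57 when RD replicate 1 was left out). At the unadjusted limit 3 were higher, DESeq2 called 2 of them higher, and their summed level was 66.6 to 119 FPKM with RD and 97.3 to 229 FPKM with HCD. Cd5l, a secreted macrophage protein and the most abundant of them, had 22.9 to 44.4 and 39.2 to 97.9 FPKM (log2 fold change 1.21, edgeR adjusted p = 0.101). All 7 stellate cell markers were positive, with a median of 0.50 (0.21 when HCD replicate 1 was left out), 1 higher at the unadjusted limit (1 called when HCD replicate 2 was left out), and sums of 124 to 169 and 141 to 263 FPKM, with Ecm1 the most abundant. Sinusoidal endothelial markers had 6 of 8 positive, with Clec4g the most abundant, and sums of 35.4 to 66.9 and 45.2 to 74.3 FPKM. Cholangiocyte markers, of a cell type that also expresses Onecut1, had 4 of 6 tested genes positive, with Spp1 the most abundant, and sums of 38.3 to 83.2 and 59.9 to 88.4 FPKM, with Cftr listed at 0 in some libraries. Leukocyte markers, with S100a9 of neutrophils the most abundant, summed to 4.35 to 8.79 and 8.15 to 10.1 FPKM, with Cd3e and Ms4a1 listed at 0 in some libraries. Of 7 exocrine pancreas markers 1, Cela1, was in the tables, at 12.9 to 16.5 and 4.79 to 14.5 FPKM. The trend of log2 CPM with log2 gene length had slopes of 0.0414 to 0.0641 in the RD livers and -0.0885 to -0.0129 in the HCD livers. Removing it moved Cebpb, of 1504 bases, from 1.02 to 0.85 and Foxo1, of 8665 bases, from 0.37 to 0.49. The part of these cells and of this trend in the values of the 9 genes was not tested.

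The 250 bases before the start varied in their content of G and C among the 9 genes. All 9 matched RefSeq by symbol, with 12 start sites, and the median was 65.6% G and C with 20 CpG, beside 52.4% and 6 over all 32851 mouse promoters of that length. Start sites ranged from 50.8% with 6 CpG, at 1 of the 3 sites of Foxa2, to 81.6% with 41 CpG for Cebpb. The GC box GGGCGG occurred at 10 of the 12 start sites and in 8 of the 9 genes, all but Cebpa, beside 32.7% of all promoters. The forkhead letters TGTTTAC were found for 1 gene, Foxa1, beside 3.17% of all promoters, and the C/EBP letters TTGCNNAA for none, beside 9.56%. TATAAA occurred in 4 genes (12.4% of all promoters), CCAAT in 5 (33.8%), the E-box CACGTG in Onecut1 and Klf15 (6.02%), and the cAMP half-site TGACG in Cebpb, Onecut1 and Klf15 (17.8%). Both strands were searched, and these matches are letters in a window and not binding sites.

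For each of the 9 genes the 3 genes most like it in pattern were found by Pearson r of log2 CPM over the 6 livers, among 9108 tested genes averaging 5 CPM or more. Livers of the same diet share that diet, so that r over 6 livers is a description here. With 6 livers and 9108 genes searched, a high r can also arise between genes without any relation. Cebpa was most like Sdr9c7 (r = 0.995), Hspa4 and Fbxw5, and Cebpb most like Tmcc1 (r = 0.993), Psenen and Rpp21. Foxa1 was most like Tbc1d13 (r = 0.974), Kat2a and Lrp5, Foxa2 most like Usp46 (r = 0.988), Brox and Prkaa2, and Foxa3 most like Tgs1 (r = 0.994), Utp6 and Sdf2l1. Onecut1 was most like Lemd3 (r = 0.996), Foxred1 and Tmem131, and Prox1 most like Nbeal1 (r = 0.984), Tnfaip2 and Iffo2. Foxo1 was most like Eva1a (r = 0.991), Lrrc58 and N6amt1, and Klf15 most like Arl8a (r = 0.996), Wdr91 and Otub1. No gene was named for more than 1 of the 9. Between 25 genes, for Foxa1, and 340 genes, for Foxa3, had r over 0.9.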

How the data were processed

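Liver RNA of 6 C57BL/6J mice was analysed, 3 on RD and 3 on HCD, with group and replicate taken from the sample labels. RNA was isolated with the RNeasy Kit and sequenced and processed by Novogene. The authors deposited counts, which are whole reads per gene without normalization, and FPKM, which the authors scaled by gene length and library total. The submitters' processing notes name STAR, HTSeq, DESeq2, edgeR and GRCm39 without roles or versions. Dividing counts by FPKM nevertheless gave gene lengths equal to the exon lengths of GENCODE M21 on GRCm38 for all 9 genes, so coordinates are those of GRCm38. Of 20673 genes in the tables, 20653 were in M21. The deposited fold changes and p-values of the authors' own comparison were not used.

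Counts were tested in R 4.3.3 with edgeR 4.0.16 (filterByExpr by diet, TMM, glmQLFit, glmQLFTest, no covariate), and p-values were adjusted by Benjamini-Hochberg over the 13105 genes left. CPM include the TMM factors, 0.886 to 1.07. The estimated biological coefficient of variation was 27.8%. Exact permutation tests were two-sided over all 20 assignments of 3 livers. FPKM ratios and shares were taken within each liver. The script was tested on simulated data. Lists were described by counts and medians, without a set test, and 1 listed gene is not reported here by name. The members and lists were chosen with earlier results of these data known. Named genes are the 9, called genes of each list, its most abundant gene, Foxo3, Onecut2, Alb and Xist, and the 3 genes most alike in pattern. Genes that share exons with the 9, the marker Flt4, and markers listed at or near 0, were named outside this rule after their values were seen. Overlaps of exons came from M21, and a search with minimap2 2.31 for other copies of at least 200 bases at 90% identity found only the overlapping genes. Promoters came from RefSeq on GRCm38.p6. Python 3.11.15 and matplotlib 3.10.9 were used for tables and figures.

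Alternatives were DESeq2 1.42.0, no TMM, RLE or upper-quartile factors in place of TMM, a filter at a mean of 50 counts or none, limma-trend (limma 3.58.1) on log2 of FPKM plus 1 or 0.1, removal of a length trend by loess (span 0.5), a replicate block, each liver left out, and call limits of adjusted p under 0.01 or unadjusted p of 0.05. For ratios they were CPM and medians, and for levels FPKM brought to a common sum.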

Additional observations from a re-analysis of the deposited data

How the results depend on the processing

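The count of genes called over the whole table, 428, became 992 with DESeq2, 649 without a filter, 251 with the length trend removed, 136 with the replicate block, 40 at an adjusted p under 0.01, 2739 at an unadjusted limit of 0.05, and 39 to 387 when 1 liver was left out. Of the 9 genes, 0 were called by edgeR, 2 with DESeq2, 2 without a filter, 4 at the unadjusted limit and 0 to 1 when 1 liver was left out, where the 1 was Cebpb without HCD replicate 1 and Onecut1 without HCD replicate 2. For the other lists, 6 calls became 22 with DESeq2, 18 without a filter, 3 with the length trend removed, 2 with the replicate block, 1 at an adjusted p under 0.01, 39 at the unadjusted limit, and 1 to 11 when 1 liver was left out. Neighbours in the order of levels without overlap, 1 of 8, were 0 to 2 when 1 liver was left out. The causes of these moves were not tested. Over 16 alternatives, none of the 144 fold changes of the 9 genes turned direction, 138 stayed on their side of the threshold and 6 went past it (Cebpb 3, Foxa3 2, Onecut1 1). The 6 within-liver measures kept their direction in every alternative run.

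The replicate numbers did not pair the livers, since deviations of same-numbered RD and HCD livers correlated with r = -0.0838, 0.119 and -0.0298. With the number as a block, 0 of the 9 genes were called. With 3 livers a diet, intervals of the fold changes were wide, from -4.34 to -0.29 for Onecut1, and a p that misses the threshold does not show that a gene was alike on both diets. The lowest count of the 9 genes in any liver was that of Onecut1 in HCD replicate 3, whose value rests on 7 reads.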

Other observations

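Other gene groups were also described, and their relation to the 9 genes was not tested. Of 5 bile acid genes, 3 were called: Cyp8b1, the sterol 12-hydroxylase, fell from 410 ± 85.7 to 25.5 ± 10.2 CPM (SD, n = 3; log2 fold change -4.01, edgeR adjusted p = 0.00226) and was called in each of the 6 fits that left out a liver. Cyp7a1, the rate-limiting enzyme, fell with a log2 fold change of -1.75 (edgeR adjusted p = 0.0453), and Nr0b2, which encodes the repressor SHP, rose with 1.34 (edgeR adjusted p = 0.0303). Either call was lost in 4 of the 6 fits that left out a liver, and of the 5 genes 2 were called with the length trend removed and 1 with the replicate block. Cyp27a1, the most abundant of the group, lay between 381 and 409 FPKM with RD and between 231 and 290 FPKM with HCD (edgeR adjusted p = 0.0834).

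Clock genes and glucocorticoid-induced genes had no calls by edgeR, where 3.27% of all genes were called. Over all genes tested, 20.9% reached an unadjusted edgeR p of at most 0.05, and DESeq2 called 6.97% of the genes it tested. Of 14 clock genes tested, an unadjusted p of at most 0.05 was reached by 3 with higher and 5 with lower values, and DESeq2 called 3 higher and 2 lower. When HCD replicate 1 was left out, edgeR called 3 of them, and 1 when RD replicate 3 was. Nfil3, the most abundant clock gene, had a log2 fold change of 0.13 (edgeR adjusted p = 0.768). Of 9 glucocorticoid-related genes, 3 were higher at the unadjusted limit and DESeq2 called 2 higher, while edgeR called 3 when HCD replicate 1 was left out. Tsc22d3, the most abundant of them, had 12.9 to 19.5 FPKM with RD and 25.9 to 67.8 FPKM with HCD (log2 fold change 1.24, edgeR adjusted p = 0.0958). Of 10 immediate early genes tested, none was called by edgeR and 2 were by DESeq2 (1 by edgeR when RD replicate 2 or HCD replicate 2 was left out), with Ier2 the most abundant (log2 fold change 0.76, edgeR adjusted p = 0.106). The hours at which livers were taken are not given in the sources used here.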
